A study of Mus musculus with 28 samples.

Results

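The TGF-β-alone and IL-4-alone cultures of WT CD4+ T cells were compared gene by gene. These are 6 of the 28 samples of the series, 3 libraries for each cytokine, chosen by their labels. Naïve CD4+ CD62L+ T cells from the spleen and lymph nodes of mice were stimulated through the T cell receptor with anti-CD3 and anti-CD28, and TGF-β, IL-4, both cytokines or neither were added. The study asked how the 2 cytokines together drive Th9 differentiation, the program that yields IL-9. The single-cytokine cultures show the cells with each cytokine added and the other not added. Signaling through the TGF-β receptor in cultures without added TGF-β was not measured here. In all, 24 RNA-seq libraries cover 4 cultures of WT and *Tgfbr1* KO cells, and 4 DNase-seq libraries were not used here because none was made with either cytokine alone.

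The RNA-seq titles give only WT or KO, and the sources used here do not state which mouse line gave these cells. The study used 2 lines with floxed *Tgfbr1*, one with *Cd4-cre* and one with *Ert2-cre*, of both sexes and 8 to 10 weeks old. The titles of the DNase-seq libraries name oil for WT and tamoxifen for KO, the treatments of the *Ert2-cre* line, in which tamoxifen activates the Cre recombinase and deletes the TGF-β receptor I gene. If the RNA-seq cells came from that line, WT cells also carried the floxed alleles and the Cre. The promoter that drives *Ert2-cre* and the length of the RNA-seq cultures are not given in the sources used here. The library titles number the replicates 1 to 3 in each genotype, and whether a number stands for a mouse or for a culture is not stated, so the p-values measure the spread between these libraries.

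The headings of the expression table conflict with its contents, and the libraries were therefore taken in the order of their library numbers. The read counts of 8 WT libraries, listed in a second table, matched the value column that this order gives in 8 of 8 cases, with at least 99.849% agreement on which genes were at 0. No other column reached more than 85.789%. Only 2 of the 8 matched the column headed with their own name, and the other 6 matched a column headed with another library. TGF-β replicates 1 and 3 and IL-4 replicates 1 and 3 were identified in this way. TGF-β replicate 2 and IL-4 replicate 2, value columns 6 and 7, rest on the order alone. Every KO library also rests on the order alone. The results below depend on this assignment: with the columns read as headed, limma called 0 genes between the cytokines in WT cells, with 229 of 9804 at an unadjusted p under 0.05, and 0 in KO cells, with 629 of 9651.

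Expression was given as RPKM, reads scaled to gene length and to the number of mapped reads, for 24089 genes. Of these, 9766 had a mean of at least 1 RPKM over the 6 libraries and were tested. Read depth was not given in this table; from the size of the steps between low values, the TGF-β libraries were at 0.673 to 0.867 and the IL-4 libraries at 0.574 to 1.00 of the depth of IL-4 replicate 1. On the log2(RPKM + 1) scale, libraries of the same culture correlated at 0.9978 to 0.9985 across genes and libraries of different cultures at 0.9923 to 0.9933.

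TGF-β binds a pair of receptor kinases, TGFBR2 and TGFBR1, which phosphorylate Smad2 and Smad3 so that they enter the nucleus with Smad4. In activated CD4+ T cells it is known for inducing *Foxp3*, the transcription factor of regulatory T (Treg) cells, for priming the Th17 program and for restraining IL-2 and effector cytokines. IL-4 signals through JAK kinases and STAT6 and induces *Gata3*, the master factor of Th2 cells.

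The promoters of 4 genes are shown because their expression differed between the cytokines and because each holds a short motif of the kind these signals use. The sequences are from RefSeq on build GRCm38.p6, which is later than the mm9 build of the expression table, and run 5′ to 3′ on the gene's strand. *Il3* (chr11:54267230-54267529, minus strand) was higher with IL-4, and *Il9* (chr13:56482208-56482507, minus strand), the cytokine that defines Th9 cells, was higher with TGF-β. In both, capitals mark the palindrome of TTC and GAA separated by any 4 bases, the form that STAT6 prefers. It starts at position -6 in *Il3* and at position -184 in *Il9*, counted from the annotated transcription start. *Nt5e* (chr9:88327359-88327658, plus strand) and *Furin* (chr7:80405387-80405686, minus strand, the first of 2 promoters listed) were higher with TGF-β, and capitals mark the Smad-binding box CAGACA, at position -70 in *Nt5e*, where it lies on the opposite strand, and at position -44 in *Furin*.
Il3: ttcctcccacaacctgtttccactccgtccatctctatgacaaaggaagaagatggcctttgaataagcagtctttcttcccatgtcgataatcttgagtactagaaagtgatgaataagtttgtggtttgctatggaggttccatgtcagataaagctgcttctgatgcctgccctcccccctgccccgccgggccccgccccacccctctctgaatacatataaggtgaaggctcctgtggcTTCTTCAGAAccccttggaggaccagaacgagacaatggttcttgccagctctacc
Il9: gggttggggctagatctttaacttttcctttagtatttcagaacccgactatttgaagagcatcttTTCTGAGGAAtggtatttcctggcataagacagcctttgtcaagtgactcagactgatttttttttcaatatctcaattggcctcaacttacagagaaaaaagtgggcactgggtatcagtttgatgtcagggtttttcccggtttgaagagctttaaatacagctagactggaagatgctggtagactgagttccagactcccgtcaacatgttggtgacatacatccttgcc
Nt5e: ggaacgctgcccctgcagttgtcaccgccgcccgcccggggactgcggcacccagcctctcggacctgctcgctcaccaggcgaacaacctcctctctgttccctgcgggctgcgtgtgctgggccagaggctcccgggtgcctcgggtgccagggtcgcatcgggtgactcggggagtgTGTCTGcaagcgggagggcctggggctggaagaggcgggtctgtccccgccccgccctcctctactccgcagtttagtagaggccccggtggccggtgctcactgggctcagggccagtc
Furin: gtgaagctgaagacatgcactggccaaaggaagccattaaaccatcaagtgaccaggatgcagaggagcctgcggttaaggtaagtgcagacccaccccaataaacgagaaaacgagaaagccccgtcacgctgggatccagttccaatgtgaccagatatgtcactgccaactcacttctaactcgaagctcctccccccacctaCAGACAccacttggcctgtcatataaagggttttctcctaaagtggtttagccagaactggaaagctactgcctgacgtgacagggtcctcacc

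The 4 promoters were chosen after these matches were seen, and such letters are common. The spaced TTC and GAA palindrome, which reads the same on both strands, occurred in 6.99% of 27025 RefSeq promoters of this length, in 5.44% of the 7422 tested genes with a promoter, in 9.14% of the 197 such genes higher with IL-4 and in 3.73% of the 295 higher with TGF-β. CAGACA, searched on both strands, occurred in 21.03% of all promoters, in 15.24% of those of tested genes, in 17.97% of those higher with TGF-β and in 16.24% of those higher with IL-4. A match describes the sequence and is not a measured binding site.

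The cultures with TGF-β and with IL-4 differed in 685 genes (7.01% of 9766 tested), called at a limma adjusted p under 0.01 and a fold over 1.5. With TGF-β, 389 genes were higher (3.98%), and with IL-4, 296 genes were higher (3.03%). Fold changes are given on the log2(RPKM + 1) scale as TGF-β minus IL-4, so a positive value means higher with TGF-β, a number in parentheses after a gene is its log2 fold change, and the change of genes near 1 RPKM is understated. The change exceeded 2-fold in 159 of the genes higher with TGF-β and in 106 of those higher with IL-4, and exceeded 4-fold in 27 and 20. The median log2 fold change of all tested genes was 0.00. In all 685 genes the 3 libraries of a culture did not overlap those of the other, which held for 41.5% of all tested genes in either direction. A gene near 0 with one cytokine passed the expression minimum through the other culture alone. The plot of fold change against mean level places the 23 genes described first at the outer edges of both groups.

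**Figure D1:**
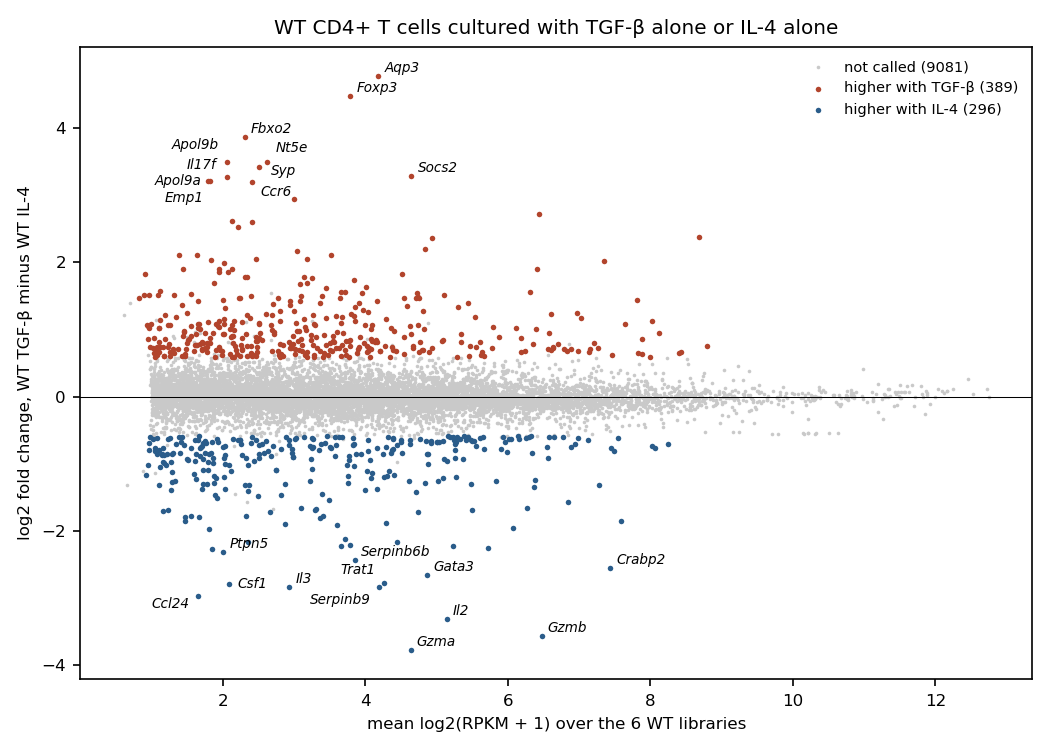
Log2 fold change (TGF-β minus IL-4, vertical axis) against the mean log2(RPKM + 1) over the 6 WT libraries (horizontal axis), 1 point per tested gene. Red points are the 389 genes higher with TGF-β, blue points the 296 higher with IL-4 and grey points the genes not called; *Aqp3* at 4.78 and *Gzma* at -3.78 lie farthest from 0.

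The gene with the largest change toward TGF-β was *Aqp3*, a channel for water and glycerol (mm9 chr4:41039755-41045216). It was measured at 96.5, 87.4 and 98.5 RPKM with TGF-β and at 2.55, 3.28 and 1.72 RPKM with IL-4 in replicates 1 to 3 (log2 fold change 4.78, SE 0.14, limma adjusted p = 1.39e-07). Control cultures, 2.34 ± 0.31 RPKM (SD, n = 3), were near the IL-4 level and cultures with both cytokines, 87.8 ± 4.78 RPKM (SD, n = 3), near the TGF-β level. *Foxp3* (mm9 chrX:7156802-7172369) followed, at 61.9, 73.4 and 57.6 RPKM with TGF-β and 1.85, 2.0 and 1.92 RPKM with IL-4 (log2 fold change 4.48, SE 0.09, limma adjusted p = 2.98e-08). Its control cultures were at 5.7 ± 0.447 RPKM (SD, n = 3) and the cultures with both cytokines at 33.7 ± 1.99 RPKM (SD, n = 3). The IL-4 libraries of *Foxp3* were therefore the lowest of the 4 WT cultures, and addition of IL-4 to TGF-β came with a lower mean than TGF-β alone. Values of the control and double-cytokine cultures are given without a test, since the same cytokine libraries would enter each comparison.

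Several of the genes with the largest changes toward TGF-β encode membrane or vesicle proteins. *Nt5e* is the ecto-nucleotidase CD73, which makes adenosine. It was at 19.5, 19.8 and 19.8 RPKM with TGF-β and 0.717, 1.08 and 0.73 RPKM with IL-4 (log2 fold change 3.5, SE 0.09, limma adjusted p = 7.37e-08). *Syp*, synaptophysin of synaptic vesicles, was at 16.8, 17.9 and 17.8 RPKM against 0.944, 0.788 and 0.48 RPKM (log2 fold change 3.42, SE 0.10, limma adjusted p = 1.39e-07). *Emp1*, a membrane protein of the tetraspan type, was at 8.7, 11.3 and 8.82 RPKM against 0.0976, 0.136 and 0.178 RPKM (log2 fold change 3.21, SE 0.10, limma adjusted p = 1.99e-07). In each, all IL-4 libraries stayed near or under 1 RPKM. *Fbxo2*, the substrate-binding part of a ubiquitin ligase for glycoproteins, had 18.1, 17.8 and 17.8 RPKM with TGF-β and 0.182, 0.246 and 0.483 RPKM with IL-4 (log2 fold change 3.86, SE 0.09, limma adjusted p = 6.66e-08). *Apol9b* and *Apol9a*, apolipoprotein L genes, had log2 fold changes of 3.5 and 3.22. They are near-identical copies whose reads the counting could have split between them, so their separate values are uncertain.

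*Socs2*, a suppressor of cytokine signaling, was abundant with TGF-β at 77.6, 76 and 78.2 RPKM and lower with IL-4 at 6.73, 7.29 and 7.02 RPKM (log2 fold change 3.29, SE 0.05, limma adjusted p = 5.81e-09). *Il17f*, a Th17 cytokine, was at 12.4, 11 and 12.4 RPKM with TGF-β and at 0, 0.74 and 0.387 RPKM with IL-4, where replicate 1 is listed at 0 (log2 fold change 3.27, SE 0.18, limma adjusted p = 3.76e-06). *Ccr6*, the receptor for CCL20 on Th17 and Treg cells, was at 15.9, 14.5 and 15 RPKM against 0.622, 0.892 and 0.754 RPKM (log2 fold change 3.2, SE 0.08, limma adjusted p = 7.38e-08). The mean of *Il17f* with both cytokines was 2.8 ± 0.359 RPKM (SD, n = 3).

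The genes with the largest changes toward IL-4 were led by granzymes, the proteases of cytotoxic granules. *Gzma* (mm9 chr13:113884033-113891187) was at 4.97, 5.52 and 6.72 RPKM with TGF-β and at 80.6, 104 and 89.3 RPKM with IL-4 (log2 fold change -3.78, SE 0.11, limma adjusted p = 1.39e-07). *Gzmb* was at 27.6, 23.9 and 23.2 RPKM with TGF-β and at 259.8, 326 and 332 RPKM with IL-4 (log2 fold change -3.56, SE 0.10, limma adjusted p = 1.17e-07). Control cultures stood at 30.5 ± 0.585 RPKM (SD, n = 3) for *Gzma* and 230.0 ± 32 RPKM (SD, n = 3) for *Gzmb*, above every TGF-β library of the same gene. *Serpinb9*, an inhibitor of granzyme B, was at 7.21, 4.39 and 6.22 RPKM with TGF-β and 45.1, 45.8 and 52.8 RPKM with IL-4 (log2 fold change -2.83, SE 0.14, limma adjusted p = 2.44e-06). *Serpinb6b*, a related protease inhibitor, had 5.26, 5.0 and 5.43 RPKM against 31.2, 32.8 and 33.7 RPKM (log2 fold change -2.43, SE 0.06, limma adjusted p = 7.19e-08). Control means of 36.3 ± 1.63 RPKM (SD, n = 3) for *Serpinb9* and 19.8 ± 0.35 RPKM (SD, n = 3) for *Serpinb6b* lay between the means with the cytokines. The proteases and their inhibitors were thus higher in the same libraries. Summed markers of CD8 T and NK cells were also higher with IL-4, at 69.9 to 89.1 RPKM against 41.3 to 46.8 RPKM, and their part was not tested. In bulk samples fewer cells of a type and less RNA per cell cannot be told apart.

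Cytokine genes made up another 4 of the 12. *Il2*, the T cell growth factor, was at 10.3, 9.75 and 10.6 RPKM with TGF-β and 113, 108 and 109 RPKM with IL-4 (log2 fold change -3.31, SE 0.05, limma adjusted p = 5.81e-09), with control cultures between them at 69 ± 6.54 RPKM (SD, n = 3). *Il3*, a hematopoietic growth factor whose promoter is shown above, was at 2.84, 1.13 and 1.83 RPKM against 17.3, 20.4 and 20.5 RPKM (log2 fold change -2.84, SE 0.19, limma adjusted p = 1.13e-05). *Csf1*, which supports macrophages, was at 0.722, 0.594 and 0.548 RPKM with TGF-β and 12.1, 9.36 and 9.4 RPKM with IL-4 (log2 fold change -2.79, SE 0.11, limma adjusted p = 5.33e-07). *Ccl24*, an eosinophil attractant, was at 0.217, 0.115 and 0.0447 RPKM against 7.8, 6.44 and 9.21 RPKM (log2 fold change -2.96, SE 0.12, limma adjusted p = 7.77e-07). The control means separated them. *Csf1* at 0.837 ± 0.232 RPKM (SD, n = 3) and *Ccl24* at 0.626 ± 0.488 RPKM (SD, n = 3) were low without IL-4, whereas *Il3* at 12.3 ± 1.63 RPKM (SD, n = 3) was present without any added cytokine and lowest with TGF-β.

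Of the remaining 4 genes, *Gata3* (mm9 chr2:9778705-9811661) was at 11.8, 9.86 and 10.2 RPKM with TGF-β and 72.3, 68.4 and 74.8 RPKM with IL-4 (log2 fold change -2.65, SE 0.07, limma adjusted p = 9.23e-08). Control cultures were at 21.2 ± 1.64 RPKM (SD, n = 3) and cultures with both cytokines at 33 ± 0.623 RPKM (SD, n = 3), so the control mean lay above the TGF-β libraries and below the IL-4 libraries. *Crabp2*, which carries retinoic acid, was at 389, 420.2 and 443 RPKM with IL-4 and 68.1, 71.2 and 71.8 RPKM with TGF-β (log2 fold change -2.55, SE 0.06, limma adjusted p = 4.16e-08). *Trat1*, an adaptor associated with the T cell receptor, was at 3.78, 7.9 and 8.33 RPKM against 49.8, 57 and 41.5 RPKM (log2 fold change -2.77, SE 0.24, limma adjusted p = 5.41e-05), and its TGF-β replicate 1 was the lowest of the 6. *Ptpn5*, a tyrosine phosphatase, was at 0.973, 0.625 and 0.802 RPKM against 8.26, 6.73 and 9.01 RPKM (log2 fold change -2.32, SE 0.11, limma adjusted p = 2.28e-06).

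**Figure D2:**
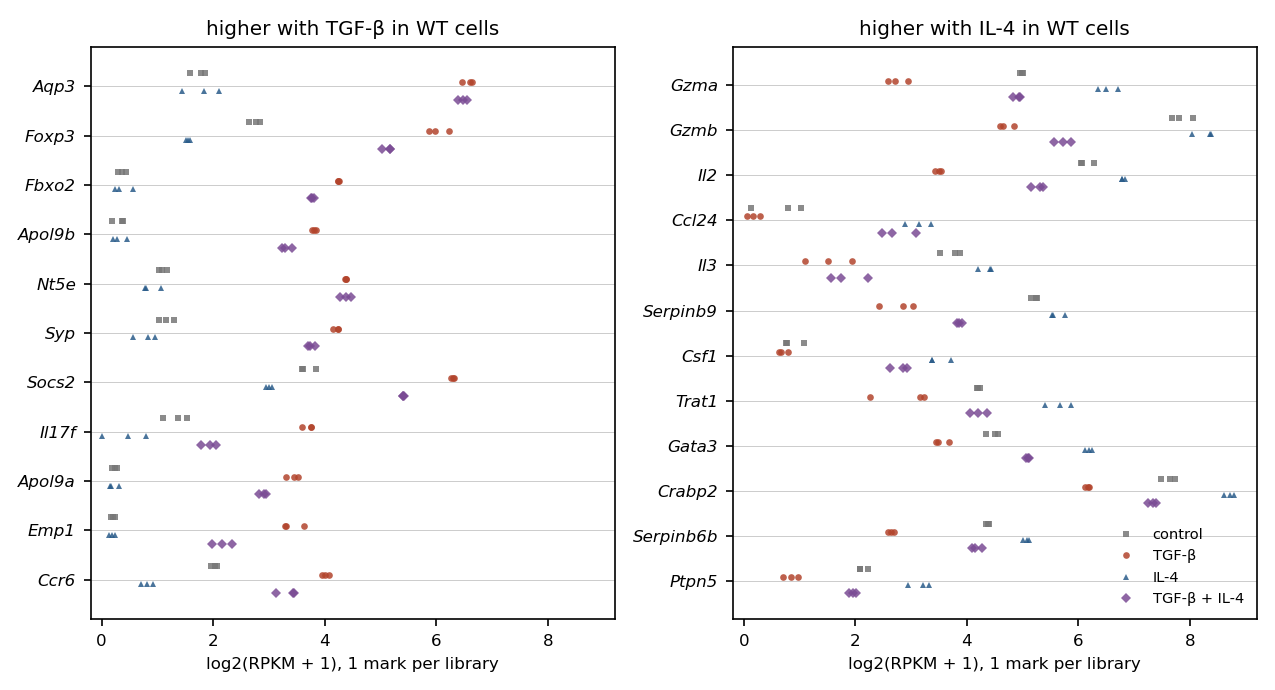
Log2(RPKM + 1) in each WT library (horizontal axis) for 11 genes with the largest changes toward TGF-β and 12 toward IL-4, with grey squares for control, red circles for TGF-β, blue triangles for IL-4 and purple diamonds for both cytokines. The red and blue marks of a gene do not overlap, and *Foxp3* and *Gata3* with both cytokines lie between them.

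Genes of the TGF-β pathway itself were next examined. Of all 9766 tested genes, 3.98% were higher with TGF-β and 3.03% with IL-4. Each list count below is to be read beside these shares. Of 15 tested receptors, Smads and co-factors, 5 were higher with TGF-β and 0 higher with IL-4 (median log2 fold change 0.33, against 0.00 for all genes). *Tgfbr1* (mm9 chr4:47366094-47427803), the kinase receptor, was at 13.9, 14 and 14.5 RPKM with TGF-β and 3.69, 3.48 and 3.94 RPKM with IL-4 (log2 fold change 1.68, SE 0.07, limma adjusted p = 6.68e-07). *Tgfbr2*, the ligand-binding receptor, was at 17.5, 18.7 and 15.5 RPKM against 9.43, 10.5 and 7.9 RPKM (log2 fold change 0.83, SE 0.10, limma adjusted p = 5.26e-04). *Acvr1b*, an activin receptor kinase, had a log2 fold change of 0.62 and was no longer called without TGF-β replicate 1 (0.54) or 3 (0.61) or IL-4 replicate 1 (0.63) or 2 (0.57). Upstream of the receptors, *Furin*, the protease that processes the TGF-β precursor, was at 84.7, 77.4 and 73.3 RPKM against 35.2, 36 and 42.2 RPKM (log2 fold change 1.04, SE 0.08, limma adjusted p = 3.08e-05), and *Lrrc32*, which holds latent TGF-β on the Treg surface, had a log2 fold change of 1.03. The signal-carrying Smads were not called. *Smad2*, *Smad3* and *Smad4* had log2 fold changes of 0.01 (SE 0.07), 0.27 (SE 0.08) and 0.08 (SE 0.09), with limma adjusted p values of 0.949, 0.0458 and 0.575.

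Inhibitors that act back on the pathway were examined in the same way. Of 9 tested, 5 were higher with TGF-β and 0 with IL-4 (median 0.81). *Ldlrad4*, which sequesters Smads, was at 6.53, 6.12 and 6.26 RPKM with TGF-β and 1.11, 0.871 and 1.09 RPKM with IL-4 (log2 fold change 1.85, SE 0.08, limma adjusted p = 8.81e-07). Its relative *Pmepa1* had a log2 fold change of 1.18. The Smad co-repressors *Skil* and *Ski* had 0.97 and 0.93, and *Smad7*, the inhibitory Smad that targets the receptor for degradation, had 0.81 at 1.71, 1.88 and 1.91 RPKM with TGF-β and 0.674, 0.724 and 0.454 RPKM with IL-4. All 5 had control means near their IL-4 means, from 0.614 ± 0.0855 RPKM (SD, n = 3) for *Smad7* to 5.36 ± 0.84 RPKM (SD, n = 3) for *Skil*.

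Among 16 tested genes known to respond to TGF-β in T cells, 7 were higher with TGF-β and 2 with IL-4 (median 0.44). Beside *Foxp3* and *Ctla4*, they were *Itgae*, the integrin CD103, at 4.1, 4.6 and 3.98 RPKM against 0.429, 0.365 and 0.392 RPKM, *Gpr83* (1.73), *Ccr8* (1.44), *Cpd*, a carboxypeptidase (1.32), and *Rgs16*, a regulator of G protein signaling (0.93). Higher with IL-4 were *Dapl1* (-0.84) and *Gadd45b*, a stress-inducible gene (-0.91). *Ccr8*, a chemokine receptor of Th2 and Treg cells, was abundant with either cytokine, at 381, 359 and 368 RPKM with TGF-β and 125, 131 and 153 RPKM with IL-4, and its control mean was 54.2 ± 3.65 RPKM (SD, n = 3). The inhibitor of DNA binding *Id1* was not called, with a log2 fold change of 0.48 and a limma adjusted p of 0.0154.

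The components of IL-4 signaling were taken next. Of 13 tested genes of the IL-4 receptor and the JAK-STAT6 pathway, 1 was higher with TGF-β and 0 with IL-4 (median 0.00), near the 7.01% of all tested genes called in either direction. The called gene is named next. It was *Pik3r1*, the regulatory subunit of PI3 kinase, at 5.83, 6.03 and 5.57 RPKM against 3.41, 3.51 and 3.54 RPKM (0.60), just over the fold limit, and without TGF-β replicate 2 its log2 fold change of 0.58 was under it. *Stat6* was at 63, 56 and 55 RPKM with TGF-β and 57.3, 56.5 and 59.6 RPKM with IL-4 (log2 fold change 0.00, SE 0.06, limma adjusted p = 0.985). *Il4ra*, the IL-4 receptor chain, was at 53.2, 54.7 and 50.4 RPKM against 71.1, 77.4 and 67.6 RPKM. Its libraries did not overlap and its limma adjusted p was 9.10e-04, but its log2 fold change of -0.44 was under the fold limit. *Stat5a* had 0.15 (limma adjusted p = 0.146).

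Feedback inhibitors of cytokine receptors went in both directions. Of 7 tested genes of the SOCS family and *Cish*, 1 was higher with TGF-β, *Socs2*, and 2 were higher with IL-4 (median -0.11). *Socs1*, which blocks JAK kinases, was at 137, 138 and 129.9 RPKM with TGF-β and 249.7, 232 and 229.7 RPKM with IL-4 (log2 fold change -0.81, SE 0.05, limma adjusted p = 7.87e-06). *Cish*, a target of STAT5, was at 98.4, 116 and 90.1 RPKM against 162, 172 and 133 RPKM (log2 fold change -0.61, SE 0.11, limma adjusted p = 0.00419). Without TGF-β replicate 1 or 3, or IL-4 replicate 1 or 2, *Cish* was no longer called, at log2 fold changes from -0.60 to -0.53. Control means of 134 ± 3.05 RPKM (SD, n = 3) for *Socs1* and 86.9 ± 13.4 RPKM (SD, n = 3) for *Cish* were close to those with TGF-β.

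The genes of T helper lineages were then compared. Of 17 tested Treg genes, 11 were higher with TGF-β and 2 with IL-4 (median 0.70). *Capg*, an actin-capping protein, was at 933, 964 and 925 RPKM with TGF-β and 192, 174 and 174 RPKM with IL-4 (log2 fold change 2.38, SE 0.05, limma adjusted p = 4.16e-08). *Ikzf4*, the transcription factor Eos that partners Foxp3, was at 10.8, 10.5 and 9.94 RPKM against 2.98, 3.68 and 2.71 RPKM (log2 fold change 1.47, SE 0.09, limma adjusted p = 9.56e-06). *Ctla4* (0.92), an inhibitory receptor, *Izumo1r*, the folate receptor family member FR4 (0.70), and the IL-2 receptor chains *Il2ra* (0.67) and *Il2rb* (0.65) were also higher with TGF-β, in addition to *Foxp3*, *Nt5e*, *Itgae*, *Gpr83* and *Lrrc32*. The receptors *Tnfrsf18*, GITR (-0.77), and *Tigit* (-1.11) were higher with IL-4. *Tigit* was at 13.5, 12.2 and 12.4 RPKM with TGF-β, 26.6, 31 and 28 RPKM with IL-4 and 13.1 ± 2.24 RPKM (SD, n = 3) in control cultures.

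Of 12 tested Th17 genes, 7 were higher with TGF-β and 0 with IL-4 (median 0.95). Beside *Il17f* and *Ccr6*, the ligand *Ccl20* was at 13.4, 9.97 and 13 RPKM with TGF-β and 1.34, 1.41 and 0.779 RPKM with IL-4 (log2 fold change 2.59, SE 0.14, limma adjusted p = 4.37e-06). *Ahr*, the aryl hydrocarbon receptor, was at 3.58, 2.79 and 3.69 RPKM against 0.572, 0.593 and 0.873 RPKM (log2 fold change 1.37, SE 0.11, limma adjusted p = 3.68e-05). *Sgk1*, a kinase that favors Th17 cells (1.0), *Il6ra*, the IL-6 receptor (0.91), and the chemokine receptor *Cxcr6* (0.69) were the other 3. *Il17a*, the signature cytokine, was not called, but without TGF-β replicate 1 it was (log2 fold change 1.4, limma adjusted p = 0.0063). It was at 1.19, 1.8 and 3.93 RPKM with TGF-β and 0.17, 0.631 and 0.461 RPKM with IL-4 (log2 fold change 1.15, SE 0.27, limma adjusted p = 0.0137), and 1.4 ± 0.593 RPKM (SD, n = 3) with both cytokines.

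Th2 genes were mixed. Of 12 tested, 4 were higher with IL-4 and 2 with TGF-β (median -0.62). Beside *Gata3*, the transcriptional repressor *Gfi1* was at 0.329, 0.88 and 0.771 RPKM with TGF-β and 6.37, 7.33 and 7.02 RPKM with IL-4 (log2 fold change -2.27, SE 0.13, limma adjusted p = 5.49e-06). *Nfil3*, a basic leucine zipper factor, was at 9.1, 9.03 and 8.35 RPKM against 23.2, 24.8 and 26 RPKM (log2 fold change -1.38, SE 0.07, limma adjusted p = 1.78e-06), and *Batf* of the AP-1 family was at 69.8, 73.3 and 62.3 RPKM against 120.0, 127 and 139.6 RPKM (log2 fold change -0.91, SE 0.08, limma adjusted p = 4.45e-05). *Maf*, a transactivator of *Il4*, went the other way at 2.23, 2.38 and 2.81 RPKM with TGF-β and 0.424, 0.585 and 0.468 RPKM with IL-4 (log2 fold change 1.22, SE 0.09, limma adjusted p = 2.03e-05), as did *Ccr8*. *Il4* itself was low at 1.55, 0.506 and 0.541 RPKM against 1.62, 2.0 and 2.33 RPKM and was not called, with a log2 fold change of -0.71 and a limma adjusted p of 0.0292. Without TGF-β replicate 1, the highest of its 3 TGF-β libraries, *Il4* was called higher with IL-4 (log2 fold change -0.96, limma adjusted p = 0.00117). The Th2 homing receptor *Ccr4* was at 22.6, 23.6 and 21.2 RPKM against 23.1, 25.9 and 23.8 RPKM, with overlapping libraries and a log2 fold change of -0.11.

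Of 14 tested Th9 genes, 4 were higher with TGF-β and 2 with IL-4 (median 0.18). *Il9* (mm9 chr13:56580638-56583607) was at 45.9, 45.2 and 40.1 RPKM with TGF-β and 13, 14.6 and 17.4 RPKM with IL-4 (log2 fold change 1.49, SE 0.10, limma adjusted p = 1.27e-05). Control cultures were at 9.66 ± 1.4 RPKM (SD, n = 3) and cultures with both cytokines at 34.6 ± 1.33 RPKM (SD, n = 3). The 3 libraries with TGF-β alone, at 45.9, 45.2 and 40.1 RPKM, all lay above the 3 with both cytokines, at 36.1, 33.6 and 34.1 RPKM. This order differs from the study's statement that T cells do not transcribe *Il9* with either cytokine by itself. The length of these cultures is not given, and the reason for the difference was not tested. Among the other called genes of the Th9 list, *Irf8* (0.67), *Foxo1* (1.0) and *Ccr6* were higher with TGF-β, while *Batf* and *Batf3* were higher with IL-4. *Batf3* was at 4.71, 4.84 and 4.61 RPKM with TGF-β and 19.8, 15.3 and 21.3 RPKM with IL-4 (log2 fold change -1.78, SE 0.11, limma adjusted p = 7.87e-06). *Irf4*, required for Th9 and Th2 cells, was at 87.9, 96.6 and 82.2 RPKM against 78.8, 90.2 and 79.7 RPKM, with overlapping libraries and a log2 fold change of 0.10.

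Of 15 tested Th1 genes, 5 were higher with IL-4 and 2 with TGF-β (median -0.34). *Ifng*, the Th1 cytokine, was at 17.1, 13.6 and 18.8 RPKM with TGF-β and 65.7, 80.1 and 97.7 RPKM with IL-4 (log2 fold change -2.22, SE 0.15, limma adjusted p = 1.28e-05), with control cultures at 65 ± 5.88 RPKM (SD, n = 3). *Stat4*, which carries the IL-12 signal, was at 6.1, 4.5 and 5.3 RPKM against 22.3, 22.6 and 22.4 RPKM (log2 fold change -1.91, SE 0.09, limma adjusted p = 1.96e-06). The IL-12 receptor chains *Il12rb1* (-0.67) and *Il12rb2* (-0.72) and *Eomes*, a T-box factor (-1.02), were the other 3. In these 3 and *Stat4* the control mean was above the IL-4 mean. Control and IL-4 means were 26.3 and 22.5 RPKM for *Stat4* and 82.8 and 77.8 RPKM for *Il12rb1*. They were 11.9 and 8.82 RPKM for *Il12rb2* and 4.46 and 2.28 RPKM for *Eomes*. *Tbx21*, which encodes T-bet, did not overlap between the cultures, at 67.5, 64.4 and 57.9 RPKM against 81.7, 83.7 and 83.6 RPKM, but its log2 fold change of -0.39 was under the fold limit. *Cxcr3* (1.1) and *Ly6c1* (0.67) were higher with TGF-β.

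**Figure D3:**
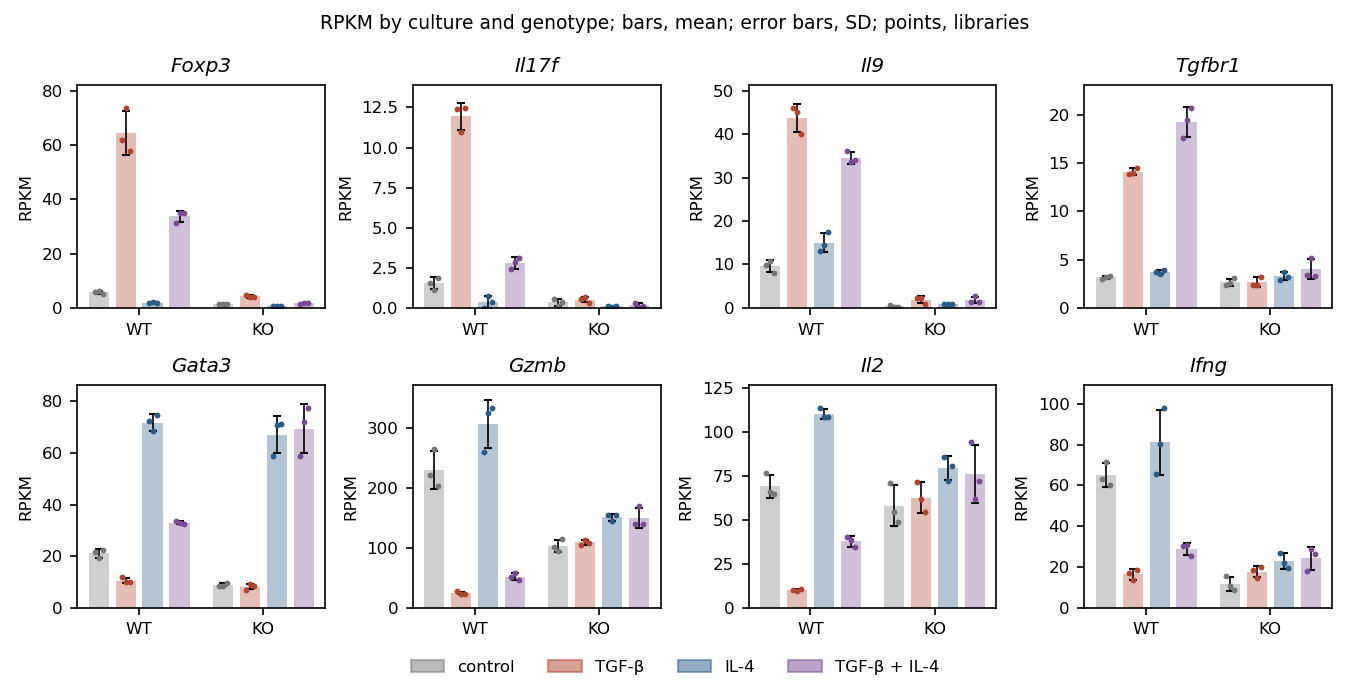
RPKM of 8 genes (vertical axes) in control (grey), TGF-β (red), IL-4 (blue) and double-cytokine (purple) cultures of WT and KO cells, with bars for the mean, error bars for the SD and points for the 3 libraries. In WT cells *Foxp3*, *Il17f*, *Il9* and *Tgfbr1* were higher with TGF-β and *Gata3*, *Gzmb*, *Il2* and *Ifng* with IL-4; in KO cells *Gata3* kept a difference of -2.88 and *Il2* had -0.35.

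Cytotoxic effector genes had the lowest median of the 25 lists with at least 5 tested members, -1.02. Of 12 tested, 7 were higher with IL-4 and 1 with TGF-β. Beside the granzymes A and B and the serpins, *Prf1*, the pore-forming perforin, was at 2.55, 2.9 and 2.87 RPKM with TGF-β and 11.8, 14 and 13.5 RPKM with IL-4 (log2 fold change -1.9, SE 0.08, limma adjusted p = 1.19e-06). *Fasl*, the ligand of the death receptor Fas, was at 2.08, 1.76 and 1.96 RPKM against 5.03, 5.28 and 5.68 RPKM (log2 fold change -1.11, SE 0.08, limma adjusted p = 1.63e-05), and *Gzmc* had a log2 fold change of -0.92. For *Prf1* and *Fasl* the control means of 12.5 ± 1.02 RPKM (SD, n = 3) and 5.17 ± 0.163 RPKM (SD, n = 3) were close to the IL-4 means. The exception was *Ctsw*, cathepsin W, at 164, 170.0 and 155 RPKM with TGF-β and 44.9, 43.6 and 40.1 RPKM with IL-4 (log2 fold change 1.9, SE 0.06, limma adjusted p = 1.39e-07).

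Of 24 tested activation cytokines and chemokines, 10 were higher with IL-4 and 4 with TGF-β (median -0.63). *Csf2*, GM-CSF, was at 1.49, 1.0 and 1.78 RPKM with TGF-β and 10.2, 9.13 and 10.1 RPKM with IL-4 (log2 fold change -2.17, SE 0.12, limma adjusted p = 4.37e-06), and *Tnfsf8*, the CD30 ligand, at 5.44, 5.27 and 5.55 RPKM against 27, 30.4 and 28.8 RPKM (log2 fold change -2.21, SE 0.06, limma adjusted p = 1.30e-07). The chemokines *Ccl3* (-1.25), *Ccl4* (-0.70) and *Cxcl10* (-0.70) and the cytokines *Tnfsf11*, RANKL (-1.18), and *Lif* (-0.90) completed the genes higher with IL-4 beside *Il2*, *Il3* and *Csf1*. Lymphotoxins went the other way. *Lta* was at 332, 317 and 338 RPKM with TGF-β and 81.8, 73.6 and 84.9 RPKM with IL-4 (log2 fold change 2.03, SE 0.06, limma adjusted p = 1.39e-07), and *Ltb* at 381, 394 and 371 RPKM against 191, 193 and 143 RPKM (log2 fold change 1.13, SE 0.10, limma adjusted p = 8.59e-05). Their control means, 174 ± 5.99 RPKM (SD, n = 3) for *Lta* and 286 ± 17.9 RPKM (SD, n = 3) for *Ltb*, lay between the means with the cytokines. *Ccl1* (0.73) and *Il16* (0.69) were also higher with TGF-β.

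Of 21 tested inhibitory and costimulatory receptors, 7 were higher with IL-4 and 2 with TGF-β (median -0.18). *Lag3*, an inhibitory receptor that binds MHC class II, was at 44.5, 43.7 and 39.4 RPKM with TGF-β and 132, 141 and 137 RPKM with IL-4 (log2 fold change -1.66, SE 0.06, limma adjusted p = 3.27e-07). *Tnfrsf8*, CD30, had a log2 fold change of -1.77, so that this receptor and its ligand *Tnfsf8* were higher in the same culture. *Cd40lg* (-0.63), *Cd160* (-0.62) and *Pdcd1lg2*, a ligand of PD-1 (-0.59), were called beside *Tigit* and *Tnfrsf18*. *Pdcd1*, PD-1 itself, was higher with TGF-β at 111, 101 and 105 RPKM against 61.5, 60.9 and 60.5 RPKM (log2 fold change 0.78, SE 0.05, limma adjusted p = 7.61e-06), as was *Ctla4*. Of 22 tested cytokine receptors, 5 were higher with TGF-β and 4 with IL-4 (median 0.04). The TNF receptor *Tnfrsf1b* (0.89) and the receptor antagonist *Il1rn* (0.74) joined *Il2ra*, *Il2rb* and *Il6ra*, and *Il21r* (-0.83) and *Il10ra* (-0.95) joined the IL-12 receptor chains.

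Integrins and homing genes followed. Of 10 tested integrins, 3 were higher with TGF-β and 2 with IL-4 (median 0.30). *Itgb7*, the partner of *Itgae* in the gut and epithelial integrin, was at 66.3, 75.2 and 65.7 RPKM with TGF-β and 29.2, 33.2 and 27.4 RPKM with IL-4 (log2 fold change 1.18, SE 0.08, limma adjusted p = 1.48e-05), so that both chains were higher with TGF-β. *Itgb2* had 0.80. The β chains *Itgb3* (-1.79) and *Itgb1* (-0.68) were higher with IL-4. Of 22 tested genes of naïve and recirculating T cells, 8 were higher with TGF-β and 2 with IL-4 (median 0.27). *Igfbp4*, a binding protein of insulin-like growth factors, was at 210.4, 273 and 188 RPKM with TGF-β and 31.5, 38.4 and 28.5 RPKM with IL-4 (log2 fold change 2.73, SE 0.14, limma adjusted p = 3.31e-06). *Klf2*, which maintains quiescence and egress, was at 7.0, 6.63 and 11.8 RPKM against 1.69, 2.68 and 0.954 RPKM (log2 fold change 1.78, SE 0.25, limma adjusted p = 0.00106), and *Foxo1*, *Bach2* (0.68), *Txk*, a Tec family kinase (1.42), *Myb* (0.79) and *Ly6c1* were also higher with TGF-β. *Satb1*, a chromatin organizer, was higher with IL-4 at 23.2, 29.5 and 26.5 RPKM against 4.82, 5.38 and 5.74 RPKM (log2 fold change -2.12, SE 0.10, limma adjusted p = 1.30e-06), as was *Dapl1*.

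Genes of the cell cycle were not called at these limits. Of 23 tested mitosis genes limma called 0, while 13 had an unadjusted p under 0.05 and 22 had a log2 fold change below 0, against 37% and 49.5% of all 9766 tested genes (median -0.27). Of 26 DNA replication genes it also called 0, with 14 at an unadjusted p under 0.05 and 23 below 0 (median -0.15). Of 20 tested glycolysis and hypoxia genes, *Egln3*, an oxygen-sensing prolyl hydroxylase, was higher with TGF-β (1.5) and *Hk2*, a hexokinase, with IL-4 (-0.61). Of 21 tested genes of sterol and fatty acid synthesis, *Abcg1*, a cholesterol exporter, was higher with TGF-β (1.09). The counts of these metabolic lists were near the 7.01% of all tested genes that were called. Of 20 tested interferon-stimulated genes, 5 were called, each higher with IL-4 (median -0.43). *Isg15*, a ubiquitin-like protein, was at 5.54, 4.21 and 6.51 RPKM with TGF-β and 17.5, 19 and 13.1 RPKM with IL-4 (log2 fold change -1.45, SE 0.16, limma adjusted p = 2.34e-04). *Gbp4*, a guanylate-binding protein, was at 15.5, 14.4 and 15.1 RPKM against 42.5, 42.3 and 40.9 RPKM (log2 fold change -1.42, SE 0.05, limma adjusted p = 4.13e-07). Control means of 17.7 ± 1.13 RPKM (SD, n = 3) for *Isg15* and 49.2 ± 3.72 RPKM (SD, n = 3) for *Gbp4* were not below the IL-4 means of 16.6 and 41.9 RPKM. *Oas1a* (-0.97), *Gbp7* (-0.96) and *Usp18* (-0.86) had the same direction.

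**Figure D4:**
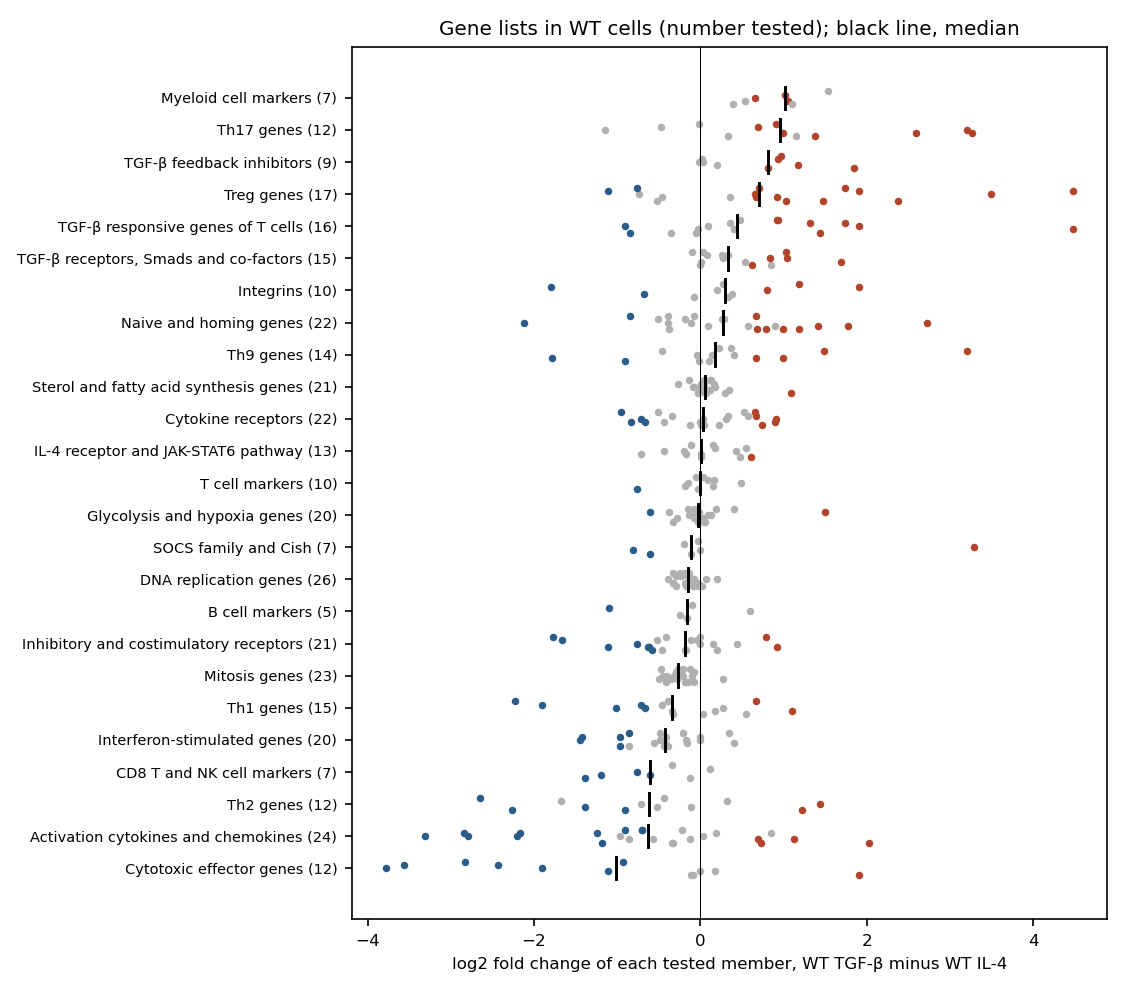
Log2 fold change (TGF-β minus IL-4, horizontal axis) of each tested member of the 25 gene lists with at least 5 tested members, with the number tested in parentheses; red points were called higher with TGF-β, blue points higher with IL-4 and grey points not called, and black bars are medians. The medians run from 1.02 for myeloid cell markers to -1.02 for cytotoxic effector genes, against 0.00 for all tested genes.

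The labelled cell type was checked against markers. T cell markers summed to 1912 to 1938 RPKM in the TGF-β libraries and 1824 to 1889 RPKM in the IL-4 libraries over 10 genes, and *Cd4* was at 81.2, 81.2 and 77.5 RPKM against 82.1, 84.5 and 79.2 RPKM. Of the 10, *Cd247*, the CD3 zeta chain, was higher with IL-4 (-0.76) and no other was called. Of the markers of CD8 T and NK cells, whose sums are given above, none of 8 was at 0 in all 6 libraries and 4 of 7 tested were higher with IL-4, namely *Cd8b1* (-1.2), *Ncr1* (-1.39), *Fcer1g* (-0.77) and *Tyrobp* (-0.61). *Fcer1g* and *Tyrobp* encode adaptors that myeloid cells also use, and both are part of the sums. *Fcer1g* lost its call without TGF-β replicate 3. *Tyrobp* lost its call without TGF-β replicate 2 or 3 or IL-4 replicate 1 or 2. *Cd8a* was at 5.04, 5.06 and 5.58 RPKM with TGF-β and 5.96, 6.18 and 5.2 RPKM with IL-4, with overlapping libraries.

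Myeloid markers had a higher sum with TGF-β. They summed to 54.3 to 95.8 RPKM with TGF-β and 22.3 to 48.7 RPKM with IL-4 over 13 genes. Of 7 tested, 3 were higher with TGF-β, *Elane* (1.06), *Lyz1* (1.02) and *Fcgr3* (0.66). *Lyz1* lost its call without IL-4 replicate 1, 2 or 3 or TGF-β replicate 3, and *Fcgr3* lost it without IL-4 replicate 1. The most abundant, *S100a8*, was at 52.2, 32 and 44.5 RPKM against 19.1, 28.6 and 12.5 RPKM and was not called (limma adjusted p = 0.0173), nor was *S100a9* (limma adjusted p = 0.294) or *Lyz2* (limma adjusted p = 0.0105). With replicates 1 and 3 alone, all 3 were called, at log2 fold changes of 1.58 for *S100a8*, 1.09 for *S100a9* and 1.90 for *Lyz2*. No myeloid marker was at 0 in all 6 libraries, and 6 of the 13, *Csf1r*, *Emr1*, *Itgam*, *Itgax*, *Cd14* and *Mpo*, were under the expression minimum. B cell markers summed to 12.9 to 14.9 RPKM with TGF-β and 13.7 to 27.3 RPKM with IL-4, and 1 of 5 tested, *Cd79b* (3 more, *Pax5*, *Cd22* and *Igll1*, were under the expression minimum), was higher with IL-4 (-1.09). Erythroid and platelet markers summed to 0.361 to 4.66 RPKM and 2.08 to 17.8 RPKM, with *Hba-a2* and *Hbb-b1* at 0 in all 6 libraries, and *Pf4* was higher with IL-4 (-1.27). The part of these cells in the differences above was not tested.

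The same cytokines were compared in KO cells to ask which differences are also found where *Tgfbr1* was targeted. *Tgfbr1*, the targeted gene, was at 3.02, 3.25 and 3.31 RPKM in WT control cultures and 2.32, 2.55 and 3.05 RPKM in KO control cultures, so its RPKM over the whole gene did not fall to 0 in the libraries labelled KO. With TGF-β it was at 2.37, 2.42 and 3.24 RPKM in KO cells and with IL-4 at 2.92, 3.75 and 3.17 RPKM, with overlapping libraries and a log2 fold change of -0.22, against 1.68 in WT cells. The difference between the WT and KO contrasts was 1.91, SE 0.14, limma adjusted p = 9.23e-07. In KO cells 84 genes were higher with TGF-β (0.876% of 9586 tested) and 139 were higher with IL-4 (1.45%). Without KO IL-4 replicate 3, the count higher with TGF-β was 48 rather than 84. The WT and KO contrasts differed in 509 of 9700 genes, above 0 in 311 (3.21%) and below 0 in 198 (2.04%).

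Of the 389 genes higher with TGF-β in WT cells, 313 were tested in KO cells and 31 were called higher with TGF-β there, which is 7.97% of the WT list and 36.9% of the KO list. Of the 296 genes higher with IL-4 in WT cells, 288 were tested in KO cells and 88 were called higher with IL-4, which is 29.7% of the WT list and 63.3% of the KO list. The difference of the contrasts was called above 0 in 226 of the 389 (58.1%) and below 0 in 112 of the 296 (37.8%), where the WT contrast that chose these genes is part of the difference. Of the 601 WT genes tested in KO cells, 314 had contrasts called different and 287 did not.

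The leading genes were chosen for the size of their WT contrast, which enters the difference from KO cells, so these differences describe them and are no separate test. Of the 11 leading TGF-β genes described, 8 were under the expression minimum in KO cells and had no KO contrast, and the other 3 were *Aqp3*, *Foxp3* and *Socs2*. *Aqp3* was at 4.58, 4.21 and 3.88 RPKM with TGF-β and 1.36, 2.27 and 0.978 RPKM with IL-4 in KO cells (log2 fold change 1.07, SE 0.17, limma adjusted p = 0.00419), and its contrast differed from that of WT cells by 3.71. *Foxp3* was at 4.76, 3.95 and 3.92 RPKM against 0.68, 0.612 and 0.542 RPKM (log2 fold change 1.69, SE 0.10, limma adjusted p = 1.10e-05), with a difference of 2.79. *Socs2* (1.02) and *Igfbp4* (0.96) were also called higher with TGF-β in KO cells, each with a smaller change than in WT cells. KO control, TGF-β and IL-4 means were 6.88, 8.24 and 3.58 RPKM for *Socs2* and 29.7, 37.5 and 18.8 RPKM for *Igfbp4*. For *Aqp3* they were 1.25, 4.22 and 1.53 RPKM and for *Foxp3* 1.43, 4.21 and 0.611 RPKM. *Capg* (0.33), *Tgfbr2* (0.18), *Furin* (-0.37) and *Skil* (0.00) were not called in KO cells, and all 4 differed between the genotypes. *Capg* had a limma adjusted p of 0.00205 in KO cells and was under the fold limit alone. *Lta* was called in both genotypes, at 79.1, 81.7 and 79.3 RPKM against 23, 27 and 26.2 RPKM in KO cells (log2 fold change 1.62, SE 0.07, limma adjusted p = 1.49e-06), and the difference of its contrasts was under the fold limit (0.41, SE 0.09, limma adjusted p = 0.00882). KO control cultures of *Lta*, at 71.5 ± 3.53 RPKM (SD, n = 3), were nearer the TGF-β level than the IL-4 level. *Il9* in KO cells was at 2.33, 2.29 and 0.936 RPKM with TGF-β and 0.837, 0.887 and 0.893 RPKM with IL-4 (log2 fold change 0.57, SE 0.19, limma adjusted p = 0.138), and the difference from WT cells did not pass the limit (0.93, SE 0.24, limma adjusted p = 0.0221). Without any added cytokine, the control mean of *Il9* was 0.369 ± 0.186 RPKM (SD, n = 3) in KO cells and 9.66 ± 1.4 RPKM (SD, n = 3) in WT cells. This difference without added TGF-β was not tested.

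For some genes higher with IL-4 no difference between genotypes was called. *Gata3* was at 7.09, 9.09 and 8.6 RPKM with TGF-β and 58.8, 71 and 71.4 RPKM with IL-4 in KO cells (log2 fold change -2.88, SE 0.10, limma adjusted p = 8.97e-07), and the difference from WT cells was 0.23, SE 0.14, limma adjusted p = 0.318. *Csf1* had -3.13 in KO cells with a difference of 0.33, *Atf3*, a stress-inducible factor, had -2.33 against -2.22 in WT cells, and *Batf3* had -1.95 with a difference of 0.17; none of these differences was called. *Trat1* had -1.75 in KO cells. Its difference of -1.02 (SE 0.28) was past the fold limit but not called, at a limma adjusted p of 0.0300. *Il2*, in contrast, was at 71.7, 62 and 54.5 RPKM with TGF-β and 85.9, 72.4 and 80.8 RPKM with IL-4 in KO cells (log2 fold change -0.35, SE 0.10, limma adjusted p = 0.0793), and differed from WT cells by -2.96. *Il3* had -0.01 and *Ifng* -0.35 in KO cells, neither called. *Gzmb* had -0.47 (limma adjusted p = 4.77e-04) and *Serpinb9* -0.58 (limma adjusted p = 6.03e-04) in KO cells. Their libraries did not overlap there, but both changes were under the fold limit and were not called. All 4 genes differed between genotypes. *Gzma* (-2.12), *Crabp2* (-1.16), *Ptpn5* (-1.51) and *Serpinb6b* (-0.65) were still called higher with IL-4, with smaller changes than in WT cells.

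Some contrasts with the higher level under IL-4 were larger in KO cells. *Socs1* was at 60.2, 57.1 and 57.6 RPKM with TGF-β and 183, 185 and 172 RPKM with IL-4, a log2 fold change of -1.61 against -0.81 in WT cells. *Cish* had -1.39 against -0.61, *Pros1*, which encodes protein S, -2.29 against -1.69, and *Ralgds*, an exchange factor for Ral GTPases, -2.64 against -1.09. *Ccr4* (-1.7), *Id1* (-1.8) and *Stat5a* (-0.74) were called higher with IL-4 in KO cells and not called in WT cells. All 7 differences between genotypes were called. *Nrn1*, neuritin, had the largest change of the 84 genes called higher with TGF-β in KO cells, at 59.9, 56.9 and 63.3 RPKM against 12.3, 14.5 and 11.2 RPKM (log2 fold change 2.17, SE 0.09, limma adjusted p = 1.49e-06), while in WT cells it was at 4.95, 5.71 and 5.93 RPKM against 8.73, 7.93 and 6.13 RPKM with a log2 fold change of -0.39. Its KO control cultures, 63.7 ± 4.44 RPKM (SD, n = 3), were near the TGF-β level, and the IL-4 libraries were lower. Its WT control cultures, 31.0 ± 2.4 RPKM (SD, n = 3), were above the libraries of either cytokine. *Nrn1* and the other genes of this kind were chosen after their values were seen.

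In 10 genes the contrast was called in both genotypes in opposite directions. *Ccr8*, *Ctsw*, *Gsta4*, a glutathione transferase, and *Nek6*, a kinase, were higher with TGF-β in WT cells and with IL-4 in KO cells. *Ccr8* was at 13.4, 16.2 and 15.4 RPKM with TGF-β and 30.6, 37 and 36.6 RPKM with IL-4 in KO cells (log2 fold change -1.16, SE 0.09, limma adjusted p = 8.76e-05), and *Ctsw* had -0.59, *Gsta4* -1.14 and *Nek6* -0.65 there. The chemokines *Ccl3* and *Ccl4*, *Gpr65*, a proton-sensing receptor, *Ifih1*, an RNA sensor, *Ifitm2* and *Plk2*, a polo-like kinase, were higher with IL-4 in WT cells and with TGF-β in KO cells. *Ccl4* was at 420.2, 441 and 407 RPKM with TGF-β and 222, 216 and 224 RPKM with IL-4 in KO cells (log2 fold change 0.93, SE 0.05, limma adjusted p = 4.14e-06). The other 5 had log2 fold changes in KO cells of 0.94 for *Ccl3*, 0.75 for *Gpr65*, 0.77 for *Ifih1*, 0.59 for *Ifitm2* and 0.86 for *Plk2*. In these 5 and *Ccl4* the IL-4 mean was below the control mean in both genotypes. The TGF-β mean was the lowest of the control, TGF-β and IL-4 means in WT cells and lay nearer the control mean in KO cells. For *Ccl4*, control, TGF-β and IL-4 means were 598, 238 and 387 RPKM in WT cells and 391, 422 and 221 RPKM in KO cells.

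**Figure D5:**
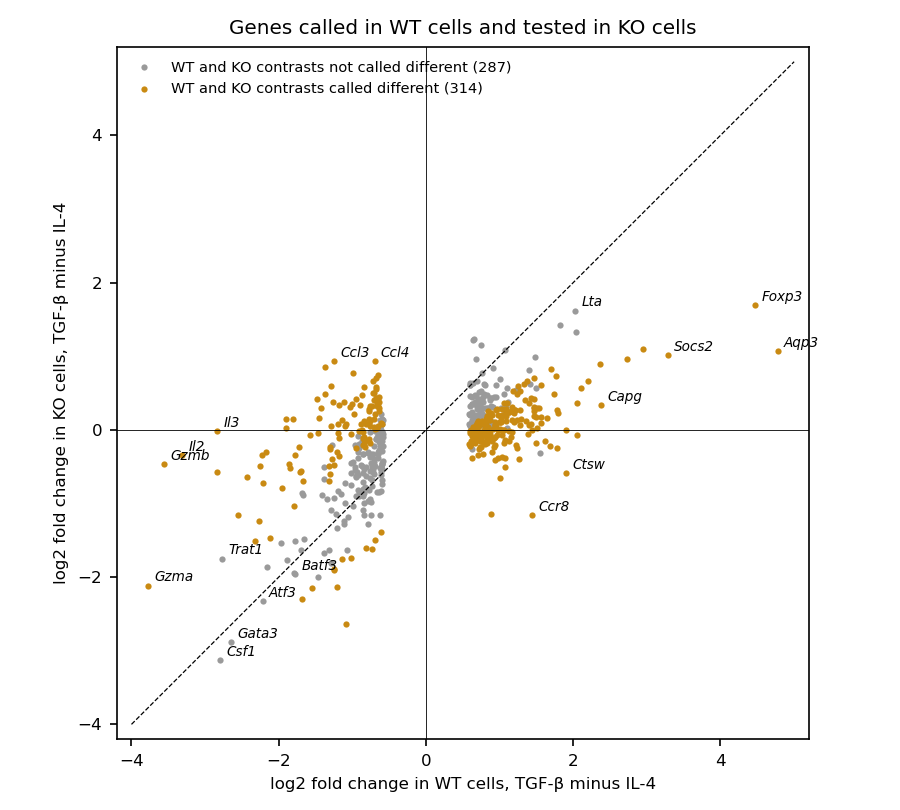
Log2 fold change (TGF-β minus IL-4) in KO cells (vertical axis) against that in WT cells (horizontal axis) for the 601 genes called in WT cells and tested in KO cells, with a dashed line where both are equal. Orange points are the 314 genes whose contrasts were called different and grey points the 287 others; *Gata3* and *Csf1* lie near the line, while *Il2*, *Il3* and *Gzmb* lie near 0 on the vertical axis.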

How the data were processed

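RNA was measured in 24 libraries made by the Smart-seq2 method from sorted CD4+ T cells. Per the study's methods, the authors aligned them with Bowtie2 (mm9), dropped duplicate and poorly mapped reads, and deposited RPKM per gene; the Bowtie2 version and the annotation are not given in the sources used here. Each of the 24 value columns was assigned by library-number order, against most of the headings, because the 8 libraries with read counts in the study's supplement matched the columns in that order; the other columns, all KO columns included, rest on order alone. There were 0 columns without a sample. The DNase-seq peak lists were not used.

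From the deposited RPKM, log2(RPKM + 1) was computed, and genes with a mean of at least 1 RPKM in the libraries compared were tested with limma 3.58.1 (R 4.3.3), with an intensity trend and Benjamini-Hochberg adjustment. A gene was called at an adjusted p under 0.01 and a fold over 1.5. The difference of the WT and KO contrasts was the interaction term of a fit of 12 libraries. Figures were drawn with matplotlib 3.10.9 under Python 3.11.15.

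The named genes are the 12 called genes per direction with the largest change, a single symbol and libraries that do not overlap, plus the called and defining members of the gene lists. Among these, 1 of the 12 genes higher with TGF-β and 1 further list member are not reported here; both were left out of the named genes and the list counts and not replaced. Members and lists were chosen with earlier results of these data known. Gene positions are those of GENCODE vM1 on mm9. Promoters, matched by symbol, were found for 20 of the 23 genes. Alternatives covered the pseudocount, the expression minimum, scaling, trend, block, threshold, each library and the headings.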

Additional observations from a re-analysis of the deposited data

Results flagged for a closer look

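The contrast of TGF-β and IL-4 was tested for a difference between WT and KO cells by the interaction term of a limma fit, in the 52 genes whose KO contrast the report describes or that lead the WT contrast. Of these, 28 were called above 0, 17 below 0 and 7 not called, against 3.21% above 0 and 2.04% below 0 of all 9700 genes tested. The 52 genes were chosen for their WT contrast or after their KO contrast was seen, so their count says nothing of the set. In 9 of them, *Nt5e*, *Syp*, *Fbxo2*, *Apol9b*, *Emp1*, *Il17f*, *Apol9a*, *Ccr6* and *Ccl24*, the KO contrast was not tested because of low levels, and the WT contrast that chose them is part of the difference. These 9 passed the expression minimum of this fit through a single WT culture, so their differences largely restate the WT contrast. Values are the WT log2 fold change minus the KO log2 fold change, each past the adjusted p and fold limits with 3 libraries a group.

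Among genes of the Treg and Th17 programs and surface proteins, the difference was 3.71 for *Aqp3*, 3.10 for *Nt5e*, 2.81 for *Emp1*, 2.81 for *Il17f*, 2.79 for *Foxp3*, 2.58 for *Ccr6*, 2.59 for *Ccr8* and 2.05 for *Capg*. It was 3.04 for *Syp*, 3.00 for *Fbxo2*, 2.86 for *Apol9b*, 2.60 for *Apol9a*, 2.27 for *Socs2*, 1.77 for *Igfbp4*, 2.49 for *Ctsw*, 2.02 for *Gsta4* and 1.65 for *Nek6*. Genes of the TGF-β pathway had 1.91 for *Tgfbr1*, 1.41 for *Furin*, 0.97 for *Skil* and 0.65 for *Tgfbr2*.

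Of the genes whose contrast lay further toward IL-4 in KO cells, the difference was 2.28 for *Id1*, 1.59 for *Ccr4*, 1.55 for *Ralgds*, 0.89 for *Stat5a*, 0.80 for *Socs1*, 0.78 for *Cish* and 0.61 for *Pros1*.

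Differences below 0 included -3.09 for *Gzmb*, -2.96 for *Il2*, -2.82 for *Il3*, -2.26 for *Serpinb9*, -1.88 for *Ifng*, -1.78 for *Serpinb6b*, -1.76 for *Ccl24* and -1.66 for *Gzma*. *Ccl24* in KO cells was at 0, 0 and 0 RPKM with TGF-β and 0.425, 1.87 and 1.97 RPKM with IL-4. At such low levels the log2(RPKM + 1) scale understates the KO change, so the size of its difference is uncertain. Others were -2.55 for *Nrn1*, -2.23 for *Plk2*, -2.18 for *Ccl3*, -1.89 for *Ifitm2*, -1.76 for *Ifih1*, -1.63 for *Ccl4*, -1.40 for *Gpr65*, -1.39 for *Crabp2* and -0.80 for *Ptpn5*. Every KO library rests on the order of the columns alone, and *Tgfbr1* did not fall to 0 in them. Groups of 3 libraries are too small for a test of single libraries that stand apart.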

How the results depend on the processing

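The WT count of 685 genes was 429 and the KO count of 223 was 140 at a minimum of 5 RPKM, where fewer genes were tested, and the count of differing contrasts went from 509 to 328. With the columns read as headed, limma called 0 genes in WT cells (229 of 9804 at an unadjusted p under 0.05) and 0 in KO cells (629 of 9651), and *Cd79b* (0.0819), *Cxcr6* (-0.0485), *Myb* (-0.0765) and *Cxcl10* (0.17) changed sign. With only replicates 1 and 3 of each WT culture, whose columns the read counts identify, 752 genes were called, of which 643 were among the 685. Leaving out each library in turn gave 621 to 734 genes in WT cells, 158 to 214 in KO cells and 458 to 523 differing contrasts. Without KO IL-4 replicate 3, 48 rather than 84 genes were higher with TGF-β in KO cells.

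Same-numbered WT libraries deviated together at correlations of -0.03, 0.20 and 0.14 and KO libraries at 0.26, -0.06 and 0.14, so the numbers were not taken as pairs. With a replicate block the counts were 719, 230 and 539, and *Il17a*, *S100a8* and *Lyz2* gained a call in WT cells. Of 133 genes described that were called in WT cells, 15 lost the call without 1 library, at absolute log2 fold changes of 0.51 to 1.31, namely *Acvr1b*, *Cish*, *Cxcl10*, *Cxcr6*, *Fcer1g*, *Fcgr3*, *Gpr65*, *Gzmc*, *Hk2*, *Il1rn*, *Lyz1*, *Pdcd1lg2*, *Pf4*, *Pik3r1* and *Tyrobp*. Headings aside, 0 of the 23 leading genes lost theirs under an alternative that tested them; *Emp1*, *Apol9a*, *Ptpn5* and *Ccl24* were not tested at the minimum of 5 RPKM. RPKM carries no read counts, so counting error was not estimated.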
